A study of Homo sapiens with 3 samples.

Results

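SR splicing factor genes were followed as a set of 8: SRSF1, SRSF2, SRSF3, SRSF5, SRSF6, SRSF7, TRA2A and TRA2B. Each was read as the counts on its own strand within a fixed genomic window in hg19 numbering, and all 8 had counts in all 3 libraries. The windows were chr17:56078000-56084800 (minus) for SRSF1, chr17:74729900-74733600 (minus) for SRSF2, chr6:36562000-36572600 (plus) for SRSF3, chr14:70193500-70239100 (plus) for SRSF5, chr20:42086400-42092700 (plus) for SRSF6, chr2:38970400-38978700 (minus) for SRSF7, chr7:23544000-23571800 (minus) for TRA2A and chr3:185633200-185656100 (minus) for TRA2B. Counts within 24 nt of a local maximum were merged into ends, and 35 ends carried enough counts to be followed, beside 779809 merged nuclear sites over the genome. The sources used here name no build for the tables. Gene names therefore rest on the windows, and whether an end lies in an exon, an intron or the last exon was not read from an annotation.

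The study mapped where polyadenylated RNAs end in HEK293T, a widely used line derived from human embryonic kidney, to set newly made RNA against steady-state RNA. The 3 groups were RNA captured after 60 min with 4-thiouridine (4sU), RNA captured after 30 min with 4sU, and the input of the 30 min labelling, with 1 library each. 4sU is a uridine analogue that cells build into RNA while it is in the medium, so captured RNA is enriched for molecules made during the labelling. The input's title mentions the 30 min labelling but its treatment label gives none, and the same input serves both times here. Captured RNA went without a first poly(A) selection, per the labels' protocols, and the sources do not say if the input did too. The strand in the tables was taken as that of the RNA. No HEK293T marker was read, because no annotation of the build was used here.

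SR proteins carry an RNA recognition motif and a region rich in arginine and serine repeats. They bind exonic sequences and help the spliceosome recognise the neighbouring splice sites, and several of them also take part in mRNA export and in the choice of poly(A) site. Many SR genes limit their own output through highly conserved exons that carry a premature stop, and TRA2A and TRA2B are the human relatives of the Drosophila splicing regulator transformer-2.

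Nuclear counts totalled 6151986 in the 60 min library, 9652023 in the 30 min library and 32768468 in input, and levels are scaled to these totals as CPM (counts per 1e+06). Mitochondrial RNA (chrM), kept out of the totals, made up 31.1% and 31.8% of all counts in the captured libraries, against 7.46% in input. A count was taken to mark the 3′ end of an RNA, in which case levels of different genes do not scale with transcript length. Sequences around the ends were not read, so counts that arose inside an RNA could not be set apart. Every group is 1 library (n = 1), so differences have no replicate check and no p-value. Intervals are 95% intervals of counting error only, and amplified copies of a molecule may be counted more than once. In bulk RNA, fewer cells with a transcript and less of it per cell cannot be told apart.

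SRSF6, a regulator of alternative exons, was the member with the largest excess in captured RNA. Its window held 555.1 CPM in 4sU 60 min and 753.6 CPM in 4sU 30 min, against 257.3 CPM in input. SRSF2, a protein that marks nuclear speckles, held 580.8 CPM in 4sU 60 min and 864.9 CPM in 4sU 30 min, against 474.1 CPM in input. These 2 genes were the only members above the input at both times, and under CPM of all counts, chrM included, SRSF2 lay below the input at 60 min, at 0.912-fold.

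SRSF3, the smallest SR protein and an adaptor for mRNA export, was the most abundant member in input, with 525.5 CPM in 4sU 60 min and 688.9 CPM in 4sU 30 min, against 740.2 CPM in input. SRSF7, a close relative of SRSF3 with a zinc knuckle, had 233.3 CPM in 4sU 60 min and 388.9 CPM in 4sU 30 min, against 447.1 CPM in input. SRSF5 had 227.7 CPM in 4sU 60 min and 329.5 CPM in 4sU 30 min, against 326.2 CPM in input. All of these were lowest at 60 min.

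SRSF1, a founding member of the family that acts in constitutive and alternative splicing, had 133.1 CPM in 4sU 60 min and 210.9 CPM in 4sU 30 min, against 295.1 CPM in input. TRA2B had 188.9 CPM in 4sU 60 min and 239.8 CPM in 4sU 30 min, against 297.6 CPM in input. TRA2A was the least abundant member in every library, with 51.0 CPM in 4sU 60 min and 45.3 CPM in 4sU 30 min, against 93.4 CPM in input. It rested on 314 counts, 437 counts and 3061 counts in the same order, the fewest of the set.

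The order of the genes differed between captured RNA and input mainly through SRSF6, which ranked 2 of 8 in both captured libraries and 7 of 8 in input. Most neighbours in the order differed beyond counting error. The exceptions were SRSF2 and SRSF6 in 4sU 60 min (ratio 1.05, interval 0.998 to 1.10), SRSF7 and SRSF5 in 4sU 60 min (1.02, 0.95 to 1.10), and TRA2B and SRSF1 in input (1.01, 0.98 to 1.04).

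**Figure D1:**
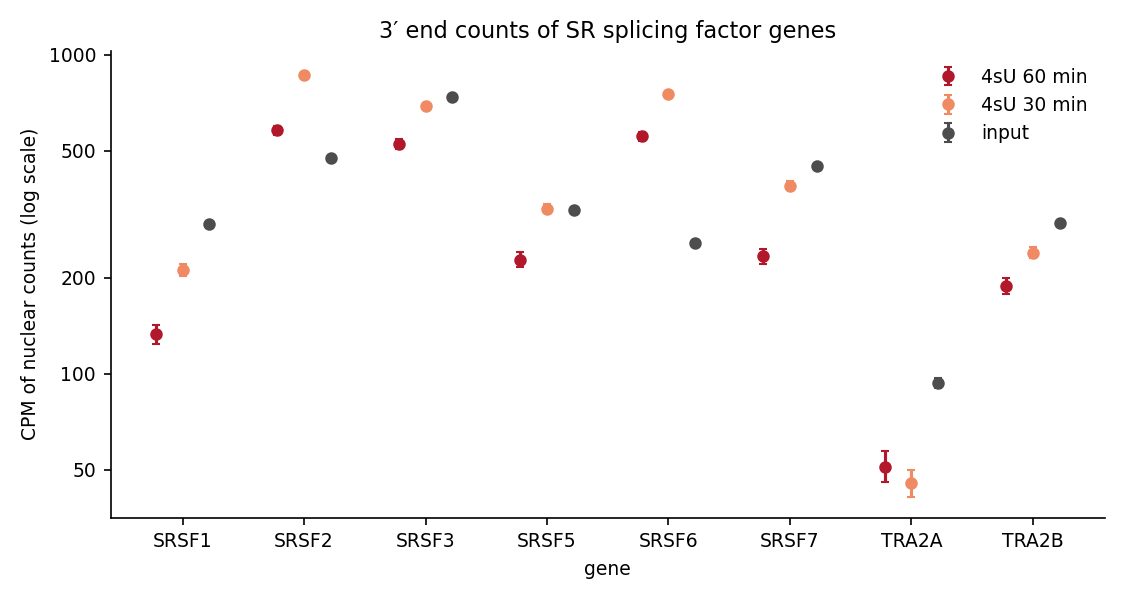
Level of each gene in the 3 libraries, as CPM of nuclear counts on a log axis, with 1 library per point and bars for the 95% Poisson interval of the count. SRSF6 and SRSF2 lie above the input in both captured libraries, and TRA2A is lowest throughout.

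A call, higher or lower, needed a 2-fold or larger CPM ratio with an interval that left out 1. After 30 min, SRSF6 was called higher than input, at 2.93-fold (2.84 to 3.02), and TRA2A was called lower, at 2.06-fold lower (1.87 to 2.29). The other 6 genes were not called. Among all 10843 nuclear sites with a mean of at least 10 CPM, 35.3% were called higher and 17.1% lower, so 1 of 8 in each direction is no larger than the background. The genes are sums over windows and the background is single sites, so the comparison is rough. Among sites with a mean of at least 50 CPM, 27.6% were higher and 22.3% lower. With the other scalings tried, 26.9% to 28.4% of all sites were higher and 24.6% to 26.7% lower.

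After 60 min, SRSF6 was again called higher, at 2.16-fold (2.07 to 2.25), and SRSF1 was called lower, at 2.22-fold lower (2.06 to 2.38). SRSF7 came close to the threshold, at 1.92-fold lower (1.81 to 2.02), and TRA2A was 1.83-fold lower (1.63 to 2.06). The background at 60 min was 27.3% of all sites called higher and 21.8% called lower. With chrM counts in the total, SRSF6 was no longer called, at 1.61-fold, and 4 genes were called lower (SRSF1, SRSF7, TRA2A and TRA2B), while 20.0% of all sites were higher and 32.4% lower.

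The median over the 8 genes was a log2 ratio of -0.59 at 60 min and -0.15 at 30 min, beside 0.063 and 0.37 over all sites. SRSF2 and SRSF6 lay above the median of all sites at both times and the other 6 genes lay below it. A common scaling factor does not move this order. It does move the sign for SRSF5 at 30 min, which was 1.01-fold (0.97 to 1.05) with nuclear CPM and 0.744- to 0.788-fold with the other scalings. Against nuclear CPM those scalings moved the median of all sites by -0.44 to -0.36 (log2) at 30 min and by -0.43 to -0.068 at 60 min. Both ratios share the input library, so they are no separate checks of each other.

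**Figure D2:**
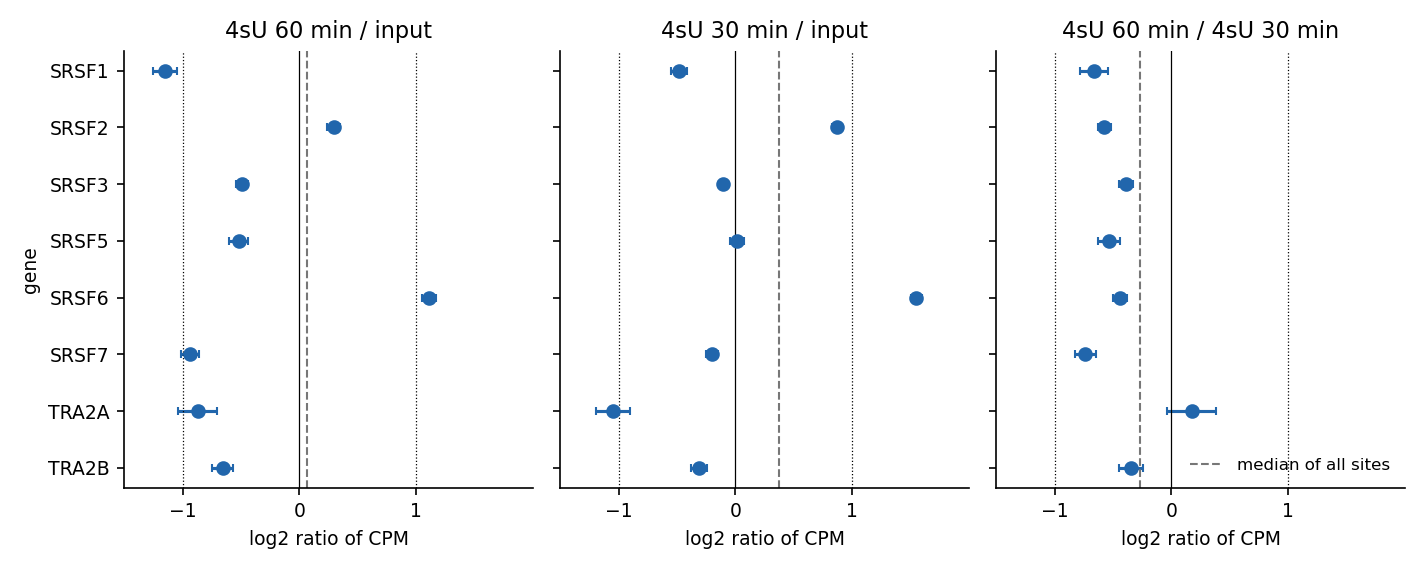
Log2 ratio of CPM for each gene in the 3 comparisons, with bars for the 95% interval of counting error, dotted lines at 2-fold and a dashed line at the median of all 10843 sites. SRSF6 is past 2-fold against input in both panels, and 7 of 8 genes lie left of the dashed line in the panel of 60 against 30 min.

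Between the labelling times, 7 of 8 genes had a lower CPM at 60 min than at 30 min and none passed 2-fold. SRSF7 was lowest, at 1.67-fold lower (1.57 to 1.77), followed by SRSF1 at 1.58-fold lower (1.46 to 1.72). SRSF2, SRSF5, SRSF6, SRSF3 and TRA2B ranged from 1.49- to 1.27-fold lower. TRA2A was 1.13-fold its 30 min level, with an interval that included 1 (0.97 to 1.31). The median log2 ratio was -0.49 over the 8 genes and -0.27 over all sites, of which 4.58% were called higher and 14.0% lower. The same 7 genes lay below the median of all sites. With median-of-ratios scaling all ratios rose by 0.30 (log2), and 8.27% of all sites were called higher and 6.78% lower.

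RefSeq promoter sequences (GRCh38.p14, 250 bases before to 50 after the annotated start) were at hand for 6 of the 8 genes. They are shown for the gene with the highest ratio, for the gene with the lowest ratio at 60 min, and for the most abundant gene in input. Capitals mark matches on either strand to any of 4 motifs, chosen with the sequences in view. The TATA box core was searched as TATAAA. The CCAAT box was searched as its 5 letters. The GC box was searched as GGGCGG. Part of the cAMP response element was searched as TGACGT. Matches of different motifs did not overlap in the sequences shown. SRSF6 is at chr20:43457646-43457945 (plus), SRSF1 at chr17:58007197-58007496 (minus) and SRSF3 at chr6:36594112-36594411 (plus).
SRSF6: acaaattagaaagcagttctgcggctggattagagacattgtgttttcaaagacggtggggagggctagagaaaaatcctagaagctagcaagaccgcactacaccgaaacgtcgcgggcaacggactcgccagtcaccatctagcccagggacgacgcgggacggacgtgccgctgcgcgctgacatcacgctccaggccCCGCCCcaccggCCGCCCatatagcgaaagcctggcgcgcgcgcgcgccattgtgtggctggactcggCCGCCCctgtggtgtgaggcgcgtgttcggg
SRSF1: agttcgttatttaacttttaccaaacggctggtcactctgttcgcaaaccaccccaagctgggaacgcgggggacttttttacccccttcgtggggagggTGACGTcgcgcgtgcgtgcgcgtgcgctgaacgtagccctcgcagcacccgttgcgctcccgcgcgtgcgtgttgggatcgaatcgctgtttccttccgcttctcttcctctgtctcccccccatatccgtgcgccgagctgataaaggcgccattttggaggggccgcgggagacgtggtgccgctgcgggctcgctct
SRSF3: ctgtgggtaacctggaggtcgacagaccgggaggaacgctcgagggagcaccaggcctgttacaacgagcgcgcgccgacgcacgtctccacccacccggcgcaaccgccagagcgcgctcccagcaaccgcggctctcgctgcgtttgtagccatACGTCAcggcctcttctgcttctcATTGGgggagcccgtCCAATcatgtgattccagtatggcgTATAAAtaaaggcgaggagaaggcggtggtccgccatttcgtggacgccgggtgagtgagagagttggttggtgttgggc

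TGACGT, part of the cAMP response element, was present in SRSF1, SRSF3, SRSF5 and TRA2B, 4 of the 6 genes, against 7.98% of 35116 promoters of the same length. A gene counted if any of its entries matched. The motifs were chosen with these sequences in view, so the shares are no test of enrichment. The GC box was present in SRSF6, SRSF7 and TRA2B, 3 of the 6 genes, against 44.95% of promoters. The TATA box core was present in SRSF3 and in one of the SRSF7 entries, against 11.5% of promoters. The CCAAT box was present in SRSF3, against 34.6%. A match is a run of letters and not a binding site, and counts at 3′ ends do not measure the promoter.

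The 35 ends each had at least 20 counts over the 3 libraries and at least 1% of the gene in a library. In each gene the end with the highest mean CPM is called the main end; 16 ends lay upstream of it (inner ends) and 11 downstream. Of the 35 ends, 23 passed the filter of a mean of 10 CPM. At 30 min, 6 of the 23 were called higher than input: the SRSF6 main end and 3 of its inner ends, the SRSF2 main end and the SRSF7 inner end. The SRSF5 inner end 334 nt upstream and the TRA2A main end were called lower. The background over all sites was 35.3% higher and 17.1% lower, so with nuclear CPM these ends were called no more often than sites in general. At 60 min, the SRSF6 main end and its inner end 2053 nt upstream were called higher, and 9 ends in the other 7 genes were called lower, beside 27.3% and 21.8% of all sites.

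Calls of ends moved with the scaling. With the 3 other scalings the SRSF2 main end, the SRSF7 inner end and the SRSF6 end 1826 nt upstream were not called at 30 min. This left 3 ends higher, all in SRSF6, and 7 or 8 of the 23 lower. The lower calls were then a slightly larger share than the 24.6% to 26.7% of all sites called lower, and close to it. They included 2 ends of SRSF3, 492 and 631 nt downstream, so ends of 1 gene are not separate cases. Under these scalings 26.9% to 28.4% of all sites were called higher. At 60 min the SRSF6 end 2053 nt upstream lost its call under each of them, and the SRSF6 main end was called except with chrM counts in the total.

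Among all 10843 sites, the SRSF6 main end at chr20:42092242 ranked at percentile 77.5 for the ratio at 60 min and 73.8 at 30 min. The SRSF2 main end at chr17:74730201 was at percentile 63.1 and 68.0. The TRA2A main end at chr7:23544403 was at 12.3 and 9.36. The main ends of the other 5 genes lay between percentiles 18.9 and 44.5 at 60 min and between 29.8 and 50.7 at 30 min, inside the bulk of the sites.

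**Figure D3:**
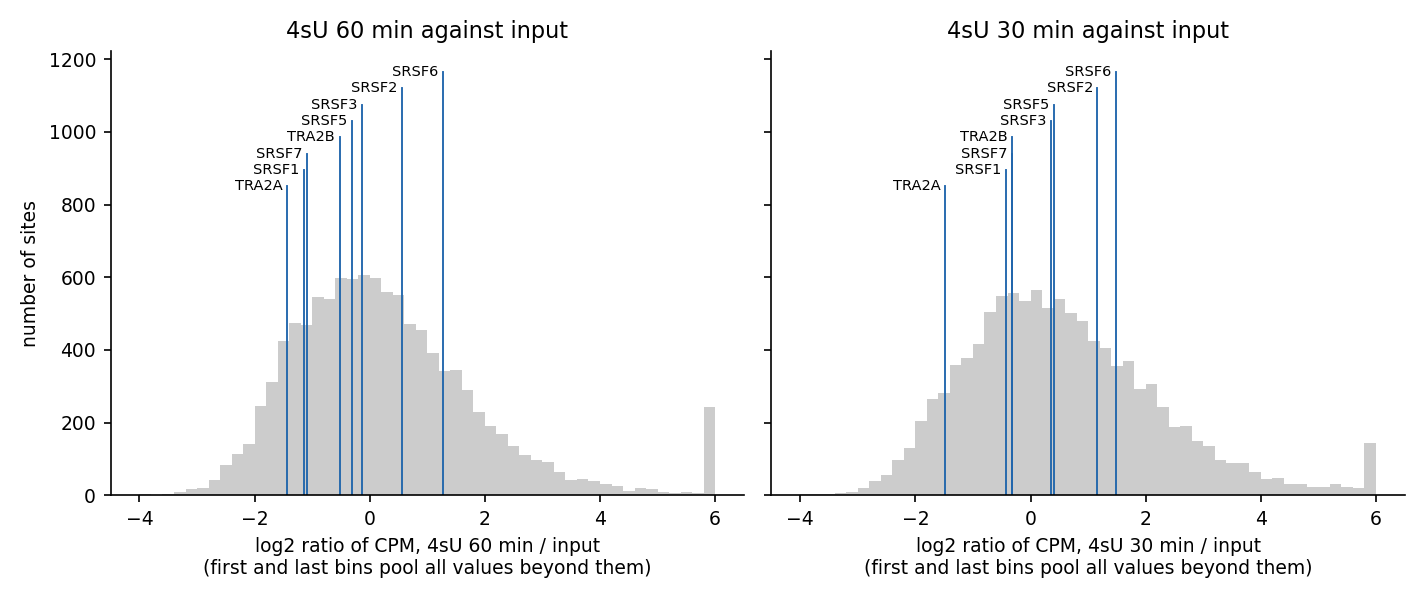
Histograms of the log2 CPM ratio to input of all 10843 sites, at 60 min and at 30 min, with a line for the main end of each gene whose height only spaces the names. SRSF6 and SRSF2 are the rightmost members in both panels and TRA2A the leftmost.

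In SRSF2, SRSF5 and SRSF3 the main end took a larger share of the gene in captured RNA than in input. SRSF2 ended mostly at its most downstream end, with 88.5% (87.4 to 89.5) of its counts there in 4sU 60 min and 89.9% (89.2 to 90.5) in 4sU 30 min, against 73.2% in input (72.5 to 73.9). Most of the remainder lay at an inner end 720 nt upstream, chr17:74730921, with 7.08% in 4sU 60 min and 6.68% in 4sU 30 min, against 23.5% in input. In CPM the main end was 2.24-fold above input at 30 min (2.17 to 2.31) while that inner end was 1.93-fold below it, so the gene's sum of 1.82-fold joins ends that went in opposite directions. Another inner end, 596 nt upstream, held 3.92%, 2.54% and 2.94% in the order 4sU 60 min, 4sU 30 min and input.

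SRSF5 had its main end at chr14:70238721, with 80.2% (78.1 to 82.2) of counts in 4sU 60 min and 90.7% (89.7 to 91.7) in 4sU 30 min, against 69.5% in input (68.6 to 70.3). The inner end 334 nt upstream, chr14:70238387, had 15.4% in 4sU 60 min and 6.29% in 4sU 30 min, against 23.3% in input. Of the 23 ends that passed the filter, it was the only one with an interval above 1 between the labelling times, at 1.69-fold in CPM (1.39 to 2.06), while the main end was 1.64-fold lower at 60 min. With median-of-ratios or TMM scaling the inner end was called higher between the times. The inner end 2496 nt upstream, chr14:70236225, had 27 counts in 4sU 60 min and 23 counts in 4sU 30 min, against 507 counts in input, and was 3.53-fold and 6.49-fold below the input. In shares, the 60 min library stood between the 30 min library and the input at each of these SRSF5 ends. In CPM this held at the inner ends 334 and 2496 nt upstream, but at the main end the 60 min library was lowest.

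SRSF3 differed in that its main end, chr6:36570067, was the most upstream of its 5 ends. It held 67.1% (65.5 to 68.7) of counts in 4sU 60 min and 71.4% (70.3 to 72.5) in 4sU 30 min, against 52.2% in input (51.6 to 52.8). The ends 492 and 631 nt downstream were lower in captured RNA. The first held 13.8% in 4sU 60 min and 12.5% in 4sU 30 min, against 23.3% in input, and the second 9.34% and 9.16%, against 15.2% in input. The end 1141 nt downstream held 7.61% and 5.81%, against 8.36% in input.

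The share of inner ends, over the counts at a gene's ends, could be compared in the 6 genes with an inner end. It was called where it differed by at least 10 points with an interval (Newcombe) that excluded 0. In SRSF2 it was 11.1% in 4sU 60 min and 9.31% in 4sU 30 min, against 26.5% in input, a difference of -15.5 points (-16.7 to -14.2) and -17.2 points (-18.1 to -16.3). In SRSF5 it was 18.5% in 4sU 60 min and 7.74% in 4sU 30 min, against 29.8% in input, a difference of -11.3 points (-13.4 to -8.996) and -22.1 points (-23.3 to -20.7). TRA2A was the member called higher, described next.

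Thus at each time 1 of 6 genes was called higher and 2 of 6 lower. Over 6270 groups of neighbouring sites with an inner end (gaps of at most 2000 nt), the background at 60 min was 9.63% called higher and 15.0% called lower, while at 30 min it was 9.71% and 13.7%. These groups were not built from gene windows, so the shares are a rough background. From 30 to 60 min SRSF5 was the gene called, with 10.8 points more at its inner ends (8.56 to 13.1), beside 6.03% of groups higher and 6.60% lower. With ends of at least 5% of the gene, SRSF5 was no longer called at 60 min against input (-8.96 points) or between the times (9.64 points).

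**Figure D4:**
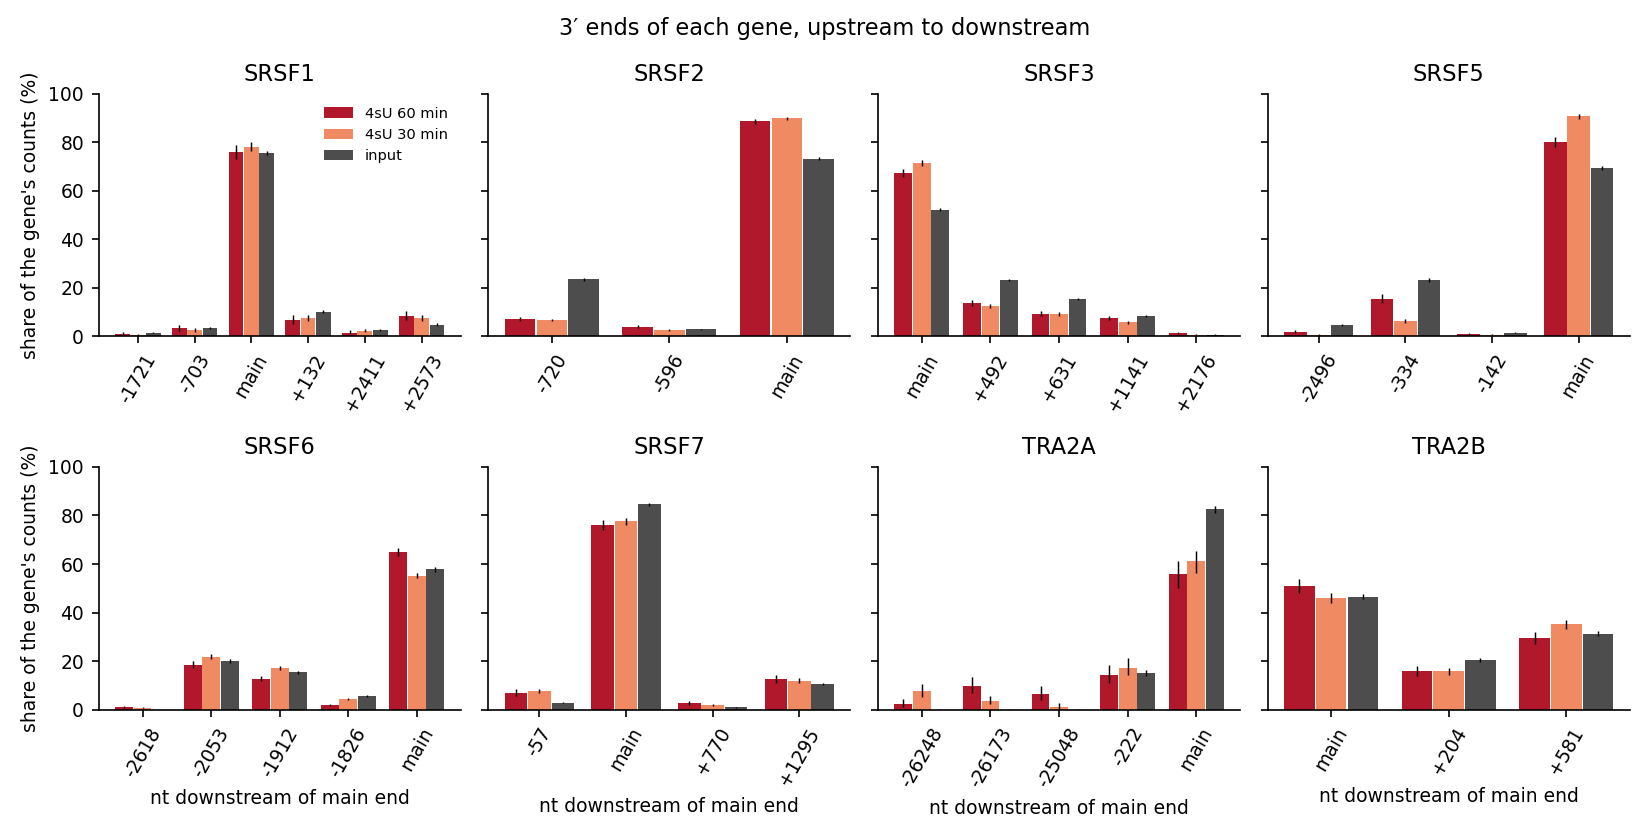
Share of each gene's counts at each of its ends, from upstream to downstream, labelled by distance from the main end in nt, with bars for the 95% Wilson interval of 1 library each. SRSF2, SRSF3 and SRSF5 have a taller main end in captured RNA than in input, and TRA2A shows 3 far upstream ends that are near 0 in input.

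TRA2A went the other way, with a smaller main end in captured RNA. The main end held 55.7% (50.2 to 61.1) of the gene's counts in 4sU 60 min and 61.1% (56.4 to 65.6) in 4sU 30 min, against 82.5% in input (81.1 to 83.8). Inner ends made up 37.1% of counts at ends in 4sU 60 min and 32.7% in 4sU 30 min, against 15.6% in input, a difference of 21.5 points (15.8 to 27.4) and 17.2 points (12.5 to 22.1). The nearest inner end, 222 nt upstream, carried the smaller part of this. It had 14.3% of the gene in 4sU 60 min and 17.4% in 4sU 30 min, against 15.1% in input. These last shares are over all counts of the gene, including those outside any end.

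Most of the difference came from 3 ends about 25 to 26 kb upstream, at the far upstream side of the TRA2A window. They gave 20.8 points at 60 min and 13.5 points at 30 min. Each had under 1% of the gene in input and met the filter for an end only through captured RNA. Their excess over input is thus partly set by that filter. With every position upstream of the main end counted, the TRA2A difference was 26.1 points at 60 min and 20.7 points at 30 min. Together the 3 ends had 58 counts in 4sU 60 min and 54 counts in 4sU 30 min, against 3 counts in input, or 20.9%, 13.6% and 0.10% of counts at ends. The end 26248 nt upstream, chr7:23570651, had 7 counts in 4sU 60 min and 33 counts in 4sU 30 min, against 2 counts in input. Its ratio was 18.6 (3.55 to 183.9) at 60 min and 56.0 (14.3 to 481.8) at 30 min.

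The other far ends were higher at 60 than at 30 min. The end 26173 nt upstream, chr7:23570576, had 31 counts in 4sU 60 min and 16 counts in 4sU 30 min, against 0 counts in input. With the input library set to 3 counts as its floor, it was 55.0-fold and 18.1-fold higher. The lower limits of the intervals, 42.2 at 60 min and 13.1 at 30 min, were computed with the input count of 0 and not with the floor. They are therefore not limits of these floored ratios. All of its counts lay at 1 position. The end 25048 nt upstream, chr7:23569451, had 20 counts in 4sU 60 min and 5 counts in 4sU 30 min, against 1 count in input. None of these ends reached a mean of 10 CPM, and TRA2A also had the largest share of counts outside any end, 11.5% in 4sU 60 min and 9.15% in 4sU 30 min, against 2.29% in input.

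SRSF6 combined a main end with 3 inner ends that lay close to each other. The main end held 64.9% (63.3 to 66.5) of counts in 4sU 60 min and 55.2% (54.1 to 56.3) in 4sU 30 min, against 57.8% in input (56.8 to 58.9). The inner end 2053 nt upstream, chr20:42090189, was 2.00-fold above input at 60 min (1.82 to 2.19) and 3.20-fold at 30 min (2.99 to 3.43). The end 1912 nt upstream was 1.80-fold and 3.25-fold above it. The end 1826 nt upstream was 0.748-fold the input at 60 min (0.572 to 0.966) and 2.27-fold at 30 min (1.96 to 2.61). At 30 min no end's share differed from input by more than 2.64 points.

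At 60 min the SRSF6 inner ends had a smaller share than at 30 min. The end 1826 nt upstream, chr20:42090416, had 68 counts in 4sU 60 min and 323 counts in 4sU 30 min, 3.03-fold lower in CPM, against 1.15-fold lower for the main end. Inner ends held 34.7% of counts at ends in 4sU 60 min, against 44.5% in 4sU 30 min, a difference of -9.71 points (-11.7 to -7.72), just short of the threshold. An end 2618 nt upstream, chr20:42089624, had 40 counts in 4sU 60 min and 58 counts in 4sU 30 min, against 2 counts in input, a ratio of 107 (27.6 to 909.9) and 98.5 (26.1 to 832.3). At this end 96.0% of the counts lay at 1 position. It reached 1% of the gene only in 4sU 60 min, so its excess over input is partly set by the filter for an end.

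SRSF7, SRSF1 and TRA2B differed less in end usage. The SRSF7 main end, chr2:38972038, held 76.2% of counts in 4sU 60 min and 77.5% in 4sU 30 min, against 84.7% in input. An end just 57 nt upstream of it held 6.97% in 4sU 60 min and 7.62% in 4sU 30 min, against 2.98% in input, and was 2.22-fold above input in CPM at 30 min (1.91 to 2.58) while the main end was 1.26-fold below. The most downstream end of SRSF7, 1295 nt past the main end, held 12.7% and 12.0%, against 10.7% in input.

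The SRSF1 main end, chr17:56080855, held 76.1% of counts in 4sU 60 min and 78.1% in 4sU 30 min, against 75.4% in input. Its most downstream end, 2573 nt further, held 8.30% and 7.51%, against 4.89% in input, and the end 132 nt downstream held 6.72% and 7.42%, against 10.1% in input. TRA2B had 3 ends within 581 nt. Its main end, chr3:185635117, held 51.0% of counts in 4sU 60 min and 46.2% in 4sU 30 min, against 46.6% in input, and the end 204 nt downstream held 15.8% in both captured libraries, against 20.4% in input. The TRA2B end 581 nt downstream, chr3:185634536, held 29.5% in 4sU 60 min and 35.2% in 4sU 30 min, against 31.4% in input. In these 3 genes no end moved by 10 points in any comparison.

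Within the main ends, counts in captured RNA were shifted by fractions of a nucleotide. In 6 of 8 genes, at both times, the mean position was upstream of its place in input, beside a median of -0.106 nt at 60 min and -0.117 nt at 30 min over 4874 sites of at least 30 CPM. SRSF3 was shifted by -0.371 nt at 60 min and -0.270 nt at 30 min. TRA2B was the largest exception, at 0.462 nt and 0.573 nt downstream, and its main end was the broadest, with an SD of positions of 4.89 nt in 4sU 60 min and 5.04 nt in 4sU 30 min, against 4.52 nt in input. The SD was larger than in input in 7 of 8 genes at both times, TRA2A being the exception. Over the 4874 sites the median change in SD was also positive, at 0.053 nt at 60 min and 0.119 nt at 30 min, so wider ends were not particular to these genes.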

How the data were processed

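The measurements were counts of polyadenylated 3′ ends in 3 HEK293T libraries (2P-seq and its 4sU version), 1 per group. The authors deposited raw, unnormalized read counts per position and strand. The processing used cutadapt and Bowtie, per the submitters' processing notes; for their versions, the build and reads with several matches details were not given in the sources used here. RefSeq lists 9 pseudogenes named after members (5 of SRSF3), whose reads could be shared or lost. Counts on chromosome 1 reached position 249223263, beyond the last GRCh38.p14 gene at 248937099, so windows in hg19 numbering were used as given.

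Positions within 24 nt of a local maximum were merged, CPM was computed over nuclear totals, and ratios carry exact Poisson-ratio intervals (Clopper-Pearson), shares Wilson and their differences Newcombe intervals, all at 95%. A count of 0 was set to 3 counts for a ratio but kept at 0 for its interval. Alternatives were 3 scalings (all counts, median-of-ratios, TMM from edgeR 4.0.16), merge distances, filters and definitions of an inner end. Python 3.11.15 and scipy 1.17.1 were used. All 8 genes were named, with main ends and other ends of at least 5% of the gene in a library; the SRSF5 end 2496 nt upstream, the SRSF2 end 596 nt upstream and the SRSF6 end 2618 nt upstream that fall short of this were named after their values were seen. Members and lists were chosen with earlier results of these data known. Further splicing genes (SRSF4, SRSF8 to SRSF12, CLK1, CLK4, SRPK1, SRPK2, U2AF1 and U2AF2) and genes of like pattern were not analysed here, for want of an annotation of the build.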

Additional observations from a re-analysis of the deposited data

Results flagged for a closer look

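At 3 ends the captured libraries lay on opposite sides of the input, each with an interval that excluded 1. The difference between the times was not tested across replicates, as each time has 1 library, and both ratios use the same input. The SRSF3 main end was 0.913-fold the input at 60 min and 1.27-fold at 30 min, and the SRSF5 main end was 0.806-fold and 1.32-fold. The SRSF6 inner end 1826 nt upstream was 0.748-fold at 60 min and 2.27-fold at 30 min. Set directly against 4sU 30 min, without the input, 4sU 60 min was 0.717-fold (0.682 to 0.755) at the SRSF3 main end. It was 0.611-fold (0.570 to 0.655) at the SRSF5 main end and 0.330-fold (0.250 to 0.430) at the SRSF6 end. With nuclear CPM the SRSF6 end was the only 1 of the 23 ends called between the times, beside 14.0% of all sites called lower. With the 3 other scalings the main ends at 30 min were 0.937- to 0.993-fold (SRSF3) and 0.972- to 1.03-fold (SRSF5) the input, and the SRSF6 end was 1.67- to 1.77-fold.

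The strand opposite to the genes was not part of the comparisons and carried counts above the input level in 2 windows with nuclear CPM. In the SRSF2 window it held 225.8 CPM in 4sU 60 min and 232.5 CPM in 4sU 30 min, against 197.1 CPM in input, or 1.15-fold and 1.18-fold. With the other scalings it was 0.853- to 1.09-fold at 60 min and 0.869- to 0.920-fold at 30 min, and the median of all sites with nuclear CPM was 1.04-fold and 1.29-fold. Of these counts 99.9% lay at 1 site on the plus strand, chr17:74729961, which is 240 nt from the SRSF2 main end. In the SRSF5 window it held 16 counts in 4sU 60 min and 29 counts in 4sU 30 min, against 20 counts in input, or 4.26-fold (2.06 to 8.65) and 4.92-fold (2.69 to 9.18). In the other 6 windows the opposite strand had at most 3 counts in any library.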

How the results depend on the processing

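No paired analysis was possible because each group has 1 library. No called gene, end or share changed sign under the alternatives run. With chrM counts in the total, 0 genes were called higher and 4 lower at 60 min against input, beside 20.0% and 32.4% of all sites. At 30 min 26.7% of all sites were lower. Median-of-ratios and TMM scaling each gave 2 genes called lower at 60 min (SRSF1 and SRSF7), beside 23.4% and 24.3% of all sites. Between the times they gave 8.27% and 7.58% of all sites higher and 6.78% and 7.48% lower. For the 23 ends, scalings chosen after the data were seen gave 3 higher at 30 min under each. They gave 8 lower with chrM counts (26.7% of all sites) and 7 lower otherwise (24.9% and 24.6%). At 60 min they gave 0 higher with chrM counts and 1 higher otherwise, and median-of-ratios and TMM gave 1 higher between the times. Counting the main end alone called 2 genes higher at 30 min (SRSF2 and SRSF6), beside 35.3% of all sites. It called 3 lower at 60 min (SRSF1, SRSF7 and TRA2A), beside 21.8% of all sites. Among all sites, a mean of at least 50 CPM gave 7.10% lower between the times, and no CPM filter gave 13.6% lower at 60 min against input. For inner ends of at least 5% of the gene, 1 gene was lower at 60 min (SRSF2), and between the times 0 were higher and 1 was lower (SRSF6, -10.03 points). With only ends more than 1000 nt upstream, an alternative added with the data in view, 0 genes were lower at either time against input and 0 were higher between the times, since the SRSF2 and SRSF5 differences lay nearer the main end; TRA2A was still called. The cause of the other changes was not tested. Extending the windows by 1000 nt and merging within 10 or 50 nt changed none of these counts of called genes. TRA2A rests on few counts, which limits its far ends most.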
